A study of Saccharomyces cerevisiae with 11 samples.

Results

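The genes described here encode the nuclear pore complex of *Saccharomyces cerevisiae* and the receptor that carries mRNA through it. They are 34 of 5449 measured genes, listed by name, with earlier results of these data known. The list holds nucleoporin genes, the genes of the export receptor subunits Mex67 and Mtr2, and those of export factors that work at the pore. The pore genes *ASM4*, *SEC13* and *POM33* are not in it and are counted apart below. Each of the 34 genes was measured by 1 probe set, which lay above the background of the array on all 11 arrays and carries no mark of sequence shared with other genes.

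The arrays compare yeast cells impaired in mRNA 3′ end formation with wild-type cells. The wild type was W303-1B, measured on 5 arrays, and the mutants carried *rna14-1* or *rna15-1*, measured on 3 arrays each. By the labels all 3 strains share the mating type *MATa* and the alleles *trp1-1*, *leu2-3, 112*, *his3-11,15*, *ade2-1* and *ura3-1*, and the arrays of a strain are biological replicates. *RNA14* and *RNA15* encode subunits of cleavage factor I (CFI), the complex that recognises and processes the 3′ end of pre-mRNA. The paper describes *rna14-1* and *rna15-1* as alleles of CFI. All cultures grew at 30°C, in YPAD medium by the labels and in YEPD by the methods.

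The nuclear pore complex is a ring-shaped channel in the nuclear envelope, built of many copies of about as many proteins as the set holds genes. An outer ring (the Y complex) and an inner ring form the scaffold, membrane proteins anchor it, and nucleoporins with phenylalanine-glycine (FG) repeats fill the channel and bind passing receptors. On the nuclear side the Mlp proteins form a basket at which export-competent mRNA docks, and on the cytoplasmic side the helicase Dbp5 with its activator Gle1 strips export factors from the mRNA. The Mex67-Mtr2 heterodimer is the general mRNA export receptor of yeast, and its loading follows cleavage and polyadenylation of the transcript. In *S. cerevisiae* several nucleoporins exist as pairs of related proteins, among them Nup157 and Nup170, Nup100 and Nup116, Nup53 and Nup59, and Mlp1 and Mlp2.

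The values are log2 intensities, so a difference of 1 is a change of 2-fold, and intensities of different genes are not compared as levels. A gene rose or fell where limma gave a Benjamini-Hochberg adjusted p under 0.01 over all 5449 genes, and it was called up or down where the change also exceeded 2-fold with a B-statistic over 2 and an average intensity A over 7. Values after ± are standard errors of the fitted log2 fold change unless named as SD. Since RNA was taken from whole cultures, fewer cells carrying a transcript and less of it per cell cannot be told apart. Both mutants are set against the same wild-type arrays, so the comparisons with the wild type are not independent of each other.

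The arrays held features that touch these genes. Among the wild-type arrays the correlation over all genes was 0.991 to 0.996 within replicates 1 and 2 or replicates 3 to 5. Between those groups it was 0.981 to 0.989. *POM34* read 10.48 and 10.31 on replicates 1 and 2 and 10.85, 10.85 and 10.81 on replicates 3 to 5. *POM152*, *NUR1* and *MIP6* were also lower on wild-type replicates 1 and 2. Replicate 3 of *rna15-1* stood apart, with a correlation of 0.964 to 0.965 with the other *rna15-1* arrays over all genes, against 0.997 between those, and of 0.939 to 0.946 with the *rna14-1* arrays, where *rna15-1* replicates 1 and 2 gave 0.901 to 0.918. In *rna15-1* replicates 1 and 2 the median gene of chromosome V lay 0.72 and 0.67 above the wild-type mean, against 0.04 in replicate 3, and in *rna14-1* the median gene of chromosome VI lay 0.29 to 0.36 above it. All 7 a-specific genes tested rose in both mutants (log2 of their summed intensity 9.84 to 10.51 in the wild type, 12.96 to 13.22 in *rna14-1* and 12.44 to 13.61 in *rna15-1*), although the labels give *MATa* for every strain. The 4 alpha-specific genes summed to 14.57 to 14.75 in the wild type, 14.29 to 14.71 in *rna14-1* and 15.69 to 15.82 in *rna15-1*, and none of the 11 marker genes was below background on any array. In all 3 strains the alpha-specific sum lay above the a-specific sum, most widely apart in the wild type and the reverse of what a *MATa* label implies. Sums of different probe sets are only roughly comparable, and the mating type of the strains was not settled here. The part of these marker differences in the results below was not tested. *RNA14* rose by 1.18 ± 0.09 in *rna14-1* and *RNA15* by 0.66 ± 0.08 in *rna15-1*, which checks no label, since a mutant allele can leave the transcript.

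In *rna14-1* cells, transcripts of the pore fell far more often than they rose. Of the 34 genes, 17 fell and 3 rose, which is 50.0% and 8.82% of them, where 29.5% of all tested genes fell and 32.8% rose. The median log2 fold change was -0.37 against 0.00 over all genes, and 73.5% of the 34 lay below 0 against 49.9%. The genes called down numbered 5 (14.7%, against 7.96% of all genes), namely *NUP157*, *NUP100*, *NUP1*, *POM152* and *NUP53*, while limma called 0 up, where 10.1% of all genes were (4 genes of the set were higher at an unadjusted p under 0.05). In 19 of the 34 genes every *rna14-1* array lay below every wild-type array, and in 4 every array lay above, where the shares over all genes were 36.1% and 37.7%. The other 14 genes did not pass the test, with changes between -0.34 and 0.19.

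In *rna15-1* cells 16 of the 34 genes fell and 4 rose. These are 47.1% and 11.8%, where 24.7% of all tested genes fell and 28.2% rose, and the median log2 fold change was -0.24 against 0.03. The 4 genes called down were *NUP100*, *NUP1*, *POM152* and *NDC1* (11.8%, against 5.32% of all genes), and limma called 0 up, against 6.53% of all genes (5 higher at an unadjusted p under 0.05). Every *rna15-1* array lay below every wild-type array for 17 genes and above for 5, where 29.1% and 32.6% of all genes did so. Without *rna15-1* replicate 3 the counts were 15 that fell, 4 that rose and 4 called down. Of all tested genes 24.1% fell, 28.7% rose and 5.23% were called down in that fit. The number that rose was 1 without *rna15-1* replicate 1 or 2 and 2 without wild-type replicate 1, 2, 3 or 4. Shares over all genes are not given for these last fits, so their counts show only the dependence on single arrays. The part of *rna15-1* replicate 3 and of the chromosome V shift in single genes is given with those genes.

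**Figure D1:**
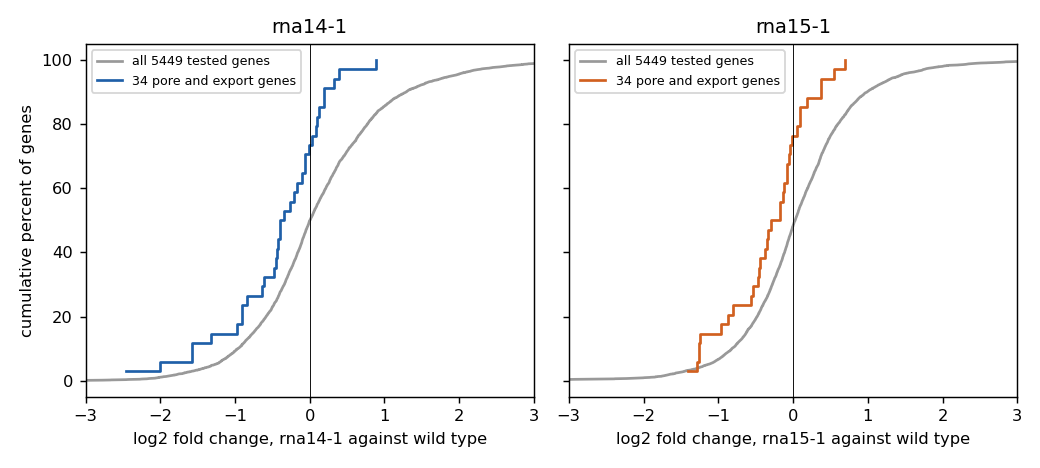
Cumulative percent of genes (vertical axis) by log2 fold change against the wild type (horizontal axis) for *rna14-1* at left and *rna15-1* at right, for all 5449 tested genes in grey and the 34 pore and export genes in colour. The coloured steps run to the left of the grey curve over most of the range, with medians of -0.37 and -0.24 against 0.00 and 0.03, and they end at 0.88 and 0.69 on the right, where the grey curves go on.

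By place in the pore, the counts can be read against the 29.5% of all tested genes that fell in *rna14-1* and the 24.7% that fell in *rna15-1*. In *rna14-1* the genes that fell were 3 of 3 membrane nucleoporin genes, 4 of 5 basket genes and 4 of 6 inner ring genes and 1 of 6 outer ring genes. In *rna15-1* they were 2 of 3 membrane, 2 of 5 basket, 5 of 6 inner ring and 3 of 6 outer ring genes. The channel FG nucleoporin genes gave 2 of 5 in each mutant, the cytoplasmic face genes 2 and 1 of 6, and the export receptor and mRNA-binding genes 1 of 3 in each. These groups are small and their differences from each other were not tested. They hold only genes of the set, and the pore genes *ASM4*, *SEC13* and *POM33* are counted further below. Those changed by 0.04, 0.21 and 0.04 in *rna14-1*, where none passed the test. In *rna15-1* they had -0.21, 0.23 and -0.46, of which only the fall of *POM33* passed (limma, adjusted p = 6.7e-04).

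**Figure D2:**
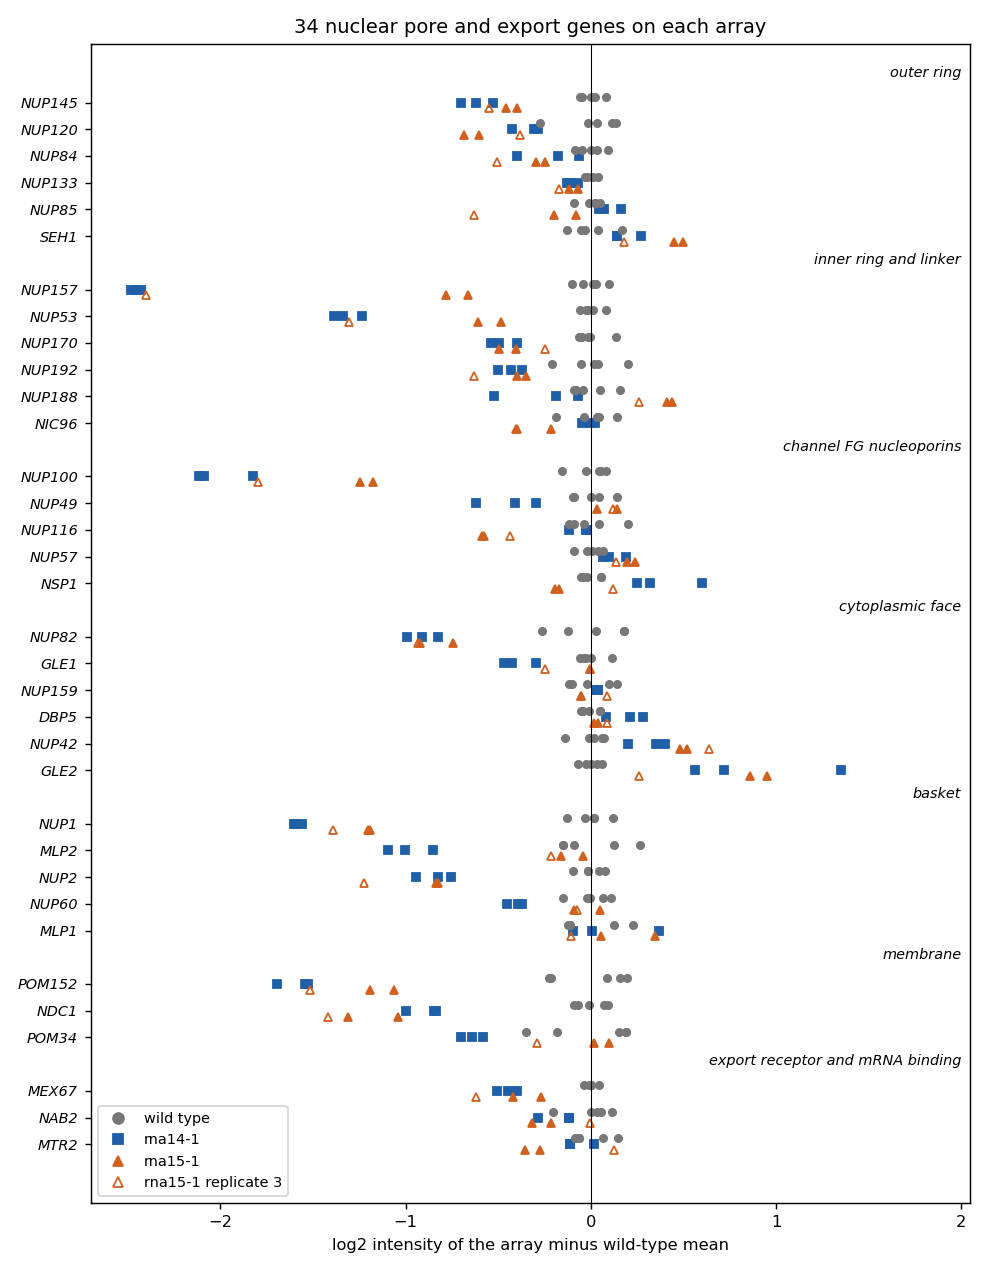
Log2 intensity of each array minus the gene's wild-type mean (horizontal axis) for the 34 genes, grouped by place in the pore, with wild-type arrays as circles, *rna14-1* as squares and *rna15-1* as triangles, open for replicate 3. Most wild-type arrays lie within 0.25 of 0, while *rna14-1* arrays reach below -2 for *NUP157* and *NUP100* and above 1 for *GLE2*, and the open triangle of *NUP157* lies with the squares.

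Of the outer ring genes, most did not pass the test in *rna14-1*. *NUP145*, whose product is cleaved into an FG nucleoporin and an outer ring subunit, had 11.65 to 11.79 on the wild-type arrays (mean 11.71), 11.18, 11.09 and 11.01 on the *rna14-1* arrays and 11.31, 11.25 and 11.16 on the *rna15-1* arrays. Neither mutant overlapped the wild type, and *NUP145* fell by 0.61 ± 0.06 and 0.47 ± 0.06 (limma, adjusted p = 8.4e-06 and 8.8e-05). *NUP120*, a subunit of the short arms of the Y complex, had 10.67, 10.36, 10.62, 10.75 and 10.77 in the wild type, 10.21, 10.33 and 10.35 in *rna14-1* and 9.95, 10.03 and 10.25 in *rna15-1*. It fell in *rna15-1* by 0.56 ± 0.10 (adjusted p = 6.7e-04), while its change of -0.34 in *rna14-1* missed the threshold (adjusted p = 0.0122). *SEH1*, a subunit shared with the complex that regulates TORC1, went the other way, with 10.51 to 10.81 in the wild type and 11.09, 11.14 and 10.82 in *rna15-1*, so that replicate 3 lay close to the highest wild-type array. *SEH1* rose in *rna15-1* by 0.38 ± 0.09 (adjusted p = 0.00386), and the call was lost without *rna15-1* replicate 1 or 2 (adjusted p = 0.0204 and 0.0217). Of the remaining outer ring genes of the set, *NUP84* fell in *rna15-1* by 0.35 (adjusted p = 0.00498) and had -0.21 in *rna14-1* (adjusted p = 0.0513). *NUP133* and *NUP85* did not pass the test in either mutant, with changes between -0.30 and 0.09. With each array centred on the median of each chromosome, *NUP84* fell in *rna14-1* too (-0.32, adjusted p = 0.00752). This centring takes the median intensity of the chromosome's genes, which can move where the change of its median gene does not. On chromosome IV, which holds *NUP84*, the median gene lay -0.01 to 0.0 from the wild-type mean in *rna14-1*. The centred value is thus an alternative normalisation and no measure of a chromosome IV shift.

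The inner ring held the gene with the largest fall of the set. *NUP157* on chromosome V (locus YER105C) encodes a scaffold nucleoporin related to Nup170. Its wild-type arrays read 11.22, 11.15, 11.02, 11.08 and 11.13, its *rna14-1* arrays 8.66, 8.69 and 8.64, and its *rna15-1* arrays 10.46, 10.34 and 8.72. The *rna14-1* arrays lay together far below the wild type, while in *rna15-1* replicates 1 and 2 lay part of the way down and replicate 3 at the level of *rna14-1*. *NUP157* fell by 2.46 ± 0.31 in *rna14-1* (adjusted p = 3.5e-05), which is 5.49-fold, and by 1.28 ± 0.31 in *rna15-1* (adjusted p = 0.00399), where it was not called because its B-statistic was -2.32. Without *rna15-1* replicate 3 the change in *rna15-1* was -0.72 ± 0.07 (adjusted p = 8.6e-06). With each array centred on the median of each chromosome, the changes were -2.44 and -1.75 ± 0.18 (adjusted p = 6.8e-07 and 1.0e-05), so in *rna15-1* the centred values lay further from the wild type.

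*NUP53* on chromosome XIII (locus YMR153W), which encodes a linker nucleoporin of the inner ring, showed the same split of the *rna15-1* arrays. It read 10.04, 10.00, 10.03, 10.07 and 10.14 in the wild type, 8.67, 8.82 and 8.72 in *rna14-1*, and 9.45, 9.57 and 8.75 in *rna15-1*. No mutant array reached the wild type, and again *rna15-1* replicate 3 lay among the *rna14-1* values. *NUP53* fell by 1.32 ± 0.15 in *rna14-1* (adjusted p = 1.6e-05) and by 0.80 ± 0.15 in *rna15-1* (adjusted p = 8.2e-04). The large scaffold nucleoporin gene *NUP192* fell by 0.43 and 0.46, and *NUP170* fell by 0.48 and 0.38. *NIC96*, whose product links the inner ring to the channel, had -0.01 in *rna14-1* and fell by 0.34 in *rna15-1* (adjusted p = 0.00328). It lies on chromosome VI, and with the chromosome medians centred it fell in *rna14-1* too, by 0.33 (adjusted p = 0.00781).

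*NUP188*, a further large scaffold gene, was the only one of the 6 inner ring genes to rise. It read 10.79, 10.66, 10.65, 10.70 and 10.90 in the wild type, 10.22, 10.55 and 10.67 in *rna14-1* and 11.15, 11.18 and 11.00 in *rna15-1*. The *rna15-1* arrays lay above all others, while *rna14-1* overlapped the wild type. *NUP188* rose by 0.37 ± 0.11 in *rna15-1* (adjusted p = 0.00989), close to the threshold, and had -0.26 in *rna14-1* (adjusted p = 0.0428). The *rna15-1* call was lost without *rna14-1* replicate 2, *rna15-1* replicate 1 or 2, or wild-type replicate 1, 2, 3 or 4, with adjusted p between 0.0145 and 0.0405. With the chromosome medians centred it was lost too (0.35, adjusted p = 0.0186). *NUP188* then fell in *rna14-1* (-0.4, adjusted p = 0.00769). The median gene of its chromosome XIII lay 0.04 to 0.08 above the wild-type mean in *rna14-1*, less than the centring moved *NUP188*.

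Among the channel FG nucleoporins, *NUP100* fell in both mutants and the others moved less. *NUP100* on chromosome XI (locus YKL068W) encodes an FG nucleoporin with the GLFG type of repeat that lines the channel. Its wild-type arrays read 11.04, 10.91, 11.12, 11.15 and 11.11, its *rna14-1* arrays 9.24, 8.95 and 8.98, and its *rna15-1* arrays 9.89, 9.82 and 9.27. The 3 strains did not overlap, with the wild type highest and *rna14-1* lowest. *NUP100* fell in both mutants, with changes of -2.01 ± 0.13 (4.02-fold lower, adjusted p = 4.2e-07) and -1.41 ± 0.13 (2.65-fold lower, adjusted p = 6.4e-06). *NUP49*, a member of the central Nsp1-Nup49-Nup57 complex, read 11.39 to 11.63 in the wild type, 10.87, 11.19 and 11.08 in *rna14-1* and 11.63, 11.52 and 11.61 in *rna15-1*. It fell in *rna14-1* by 0.44 ± 0.08 (adjusted p = 6.5e-04), with no overlap, and its 0.10 in *rna15-1* did not pass the test.

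*NSP1*, which encodes the central subunit of that complex, read 11.80 to 11.91 in the wild type, 12.45, 12.10 and 12.17 in *rna14-1* and 11.68, 11.66 and 11.97 in *rna15-1*. It rose in *rna14-1* by 0.39 ± 0.10 (adjusted p = 0.00388), a call lost without *rna14-1* replicate 1, its highest array (0.28, adjusted p = 0.0219). *NUP116*, which binds Gle2 and Mex67, read 10.95 to 11.27 in the wild type, 11.04, 10.95 and 11.04 in *rna14-1* and 10.48, 10.49 and 10.63 in *rna15-1*. Only the *rna15-1* arrays of *NUP116* left the wild-type range, and the gene fell there by 0.54 ± 0.08 (adjusted p = 1.7e-04). *NUP57*, the third subunit of the central complex, did not pass the test, with 0.12 and 0.19.

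On the cytoplasmic face the genes moved in both directions. *NUP82*, the scaffold of the cytoplasmic filament complex, read 10.64, 10.64, 10.34, 10.20 and 10.49 in the wild type, 9.64, 9.47 and 9.55 in *rna14-1* and 9.72, 9.54 and 9.53 in *rna15-1*. Both mutants lay below the wild type and overlapped each other, and the gene fell with changes of -0.91 ± 0.11 and -0.87 ± 0.11 (adjusted p = 1.9e-05 and 4.0e-05). *GLE1*, the activator of Dbp5, fell in *rna14-1*, where its arrays read 9.75, 9.92 and 9.79 against 10.16 to 10.33 in the wild type (-0.40 ± 0.08, adjusted p = 7.6e-04). In *rna15-1* it read 10.21, 10.21 and 9.97, with a change of -0.08 that did not pass the test.

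The genes that rose in both mutants were *GLE2* and *NUP42*, both of the cytoplasmic face group. *GLE2* on chromosome V encodes an mRNA export factor that docks on Nup116. It read 10.93, 11.03, 10.97, 11.06 and 11.00 in the wild type, 12.35, 11.56 and 11.72 in *rna14-1* and 11.95, 11.86 and 11.26 in *rna15-1*. All mutant arrays lay above the wild type, with replicate 1 of *rna14-1* highest and replicate 3 of *rna15-1* lowest. *GLE2* rose by 0.88 ± 0.18 (adjusted p = 0.00123) and 0.69 ± 0.18 (adjusted p = 0.00647), but with the chromosome medians centred its change in *rna15-1* was 0.22 (adjusted p = 0.226). The *rna15-1* call was also lost without *rna15-1* replicate 1 or 2 or any single wild-type array, with adjusted p between 0.0115 and 0.0351.

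*NUP42*, an FG nucleoporin that binds Gle1, read 8.58 to 8.79 in the wild type, 8.92, 9.12 and 9.07 in *rna14-1* and 9.20, 9.24 and 9.36 in *rna15-1*. The 3 strains did not overlap, and *NUP42* rose by 0.32 ± 0.07 (adjusted p = 0.00262) and 0.55 ± 0.07 (adjusted p = 8.5e-05). In *rna14-1* the call was lost without *rna14-1* replicate 2 or 3 (adjusted p = 0.0169 and 0.0144). It was also lost with the chromosome medians centred (0.21, adjusted p = 0.0195), although the median gene of its chromosome IV lay -0.01 to 0.0 from the wild-type mean in *rna14-1*. The helicase gene *DBP5* and *NUP159*, which encodes its docking site, did not pass the test in either mutant, with changes between -0.01 and 0.19.

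**Figure D3:**
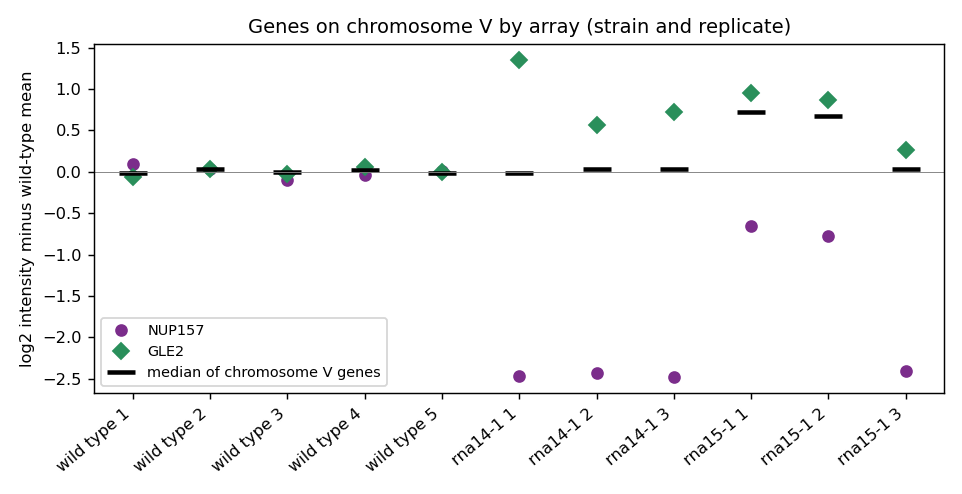
Log2 intensity minus the wild-type mean (vertical axis) on each of the 11 arrays for *NUP157* (circles) and *GLE2* (diamonds), with the median of the 259 tested genes of chromosome V as bars. The bars stand at 0.72 and 0.67 on *rna15-1* replicates 1 and 2 and within 0.04 of 0 on the other arrays, and both genes are lower on *rna15-1* replicate 3 than on replicates 1 and 2.

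The nuclear basket held the gene with the smallest adjusted p of the 34 in both mutants. *NUP1* on chromosome XV (locus YOR098C), which encodes a basket FG nucleoporin that binds importins, read 10.41, 10.56, 10.51, 10.56 and 10.66 in the wild type, 8.95, 8.98 and 8.94 in *rna14-1* and 9.35, 9.34 and 9.15 in *rna15-1*. The replicates of each strain lay close together and the strains did not overlap. *NUP1* fell by 1.58 ± 0.07 (2.99-fold, adjusted p = 5.5e-08) and 1.26 ± 0.07 (2.39-fold, adjusted p = 2.1e-07). *NUP2*, a mobile basket nucleoporin that helps release imported cargo, read 11.62 to 11.79 in the wild type, 10.96, 10.89 and 10.77 in *rna14-1* and 10.89, 10.88 and 10.49 in *rna15-1*. It fell by 0.84 ± 0.10 (adjusted p = 1.5e-05) and 0.96 ± 0.10 (adjusted p = 8.5e-06), both under 2-fold.

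*MLP2* encodes one of the filamentous Mlp proteins of the basket. It read 10.64, 10.78, 10.36, 10.42 and 10.36 in the wild type, 9.66, 9.42 and 9.51 in *rna14-1* and 10.47, 10.35 and 10.30 in *rna15-1*. All *rna14-1* arrays lay far below the wild-type range, while the *rna15-1* arrays lay at its lower end, with replicates 2 and 3 just under the lowest wild-type array. *MLP2* fell by 0.98 ± 0.11 in *rna14-1* (adjusted p = 1.2e-05) and had -0.13 ± 0.11 in *rna15-1* (adjusted p = 0.292). *NUP60*, which anchors the basket, fell in *rna14-1* by 0.40 (adjusted p = 3.9e-04) and had -0.04 in *rna15-1*, and *MLP1* had 0.10 in each mutant and did not pass the test.

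The membrane nucleoporin genes of the set fell together in *rna14-1*. *POM152* on chromosome XIII (locus YMR129W), which encodes a transmembrane ring protein of the pore, read 11.60, 11.59, 12.01, 11.97 and 11.90 in the wild type, 10.27, 10.29 and 10.12 in *rna14-1* and 10.62, 10.75 and 10.30 in *rna15-1*. Every mutant array lay below the wild type, whose replicates 1 and 2 were lower than replicates 3 to 5. *POM152* fell by 1.58 ± 0.13 (3.00-fold, adjusted p = 1.5e-06) and 1.26 ± 0.13 (2.39-fold, adjusted p = 1.1e-05). *NDC1* on chromosome XIII (locus YML031W), needed to insert both pores and spindle pole bodies into the nuclear envelope, read 11.82 to 12.00 in the wild type, 11.07, 11.06 and 10.91 in *rna14-1* and 10.60, 10.87 and 10.49 in *rna15-1*. *NDC1* was the only one of the 6 genes called down in a mutant that was lower in *rna15-1* than in *rna14-1*, with falls of 1.25 ± 0.09 (adjusted p = 1.1e-06) and 0.90 ± 0.09 (adjusted p = 6.5e-06), but the difference between the mutants missed the threshold (adjusted p = 0.0146). *POM34*, which encodes a partner of Pom152, fell in *rna14-1* by 0.64 (adjusted p = 0.00168) and had -0.06 in *rna15-1*.

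**Figure D4:**
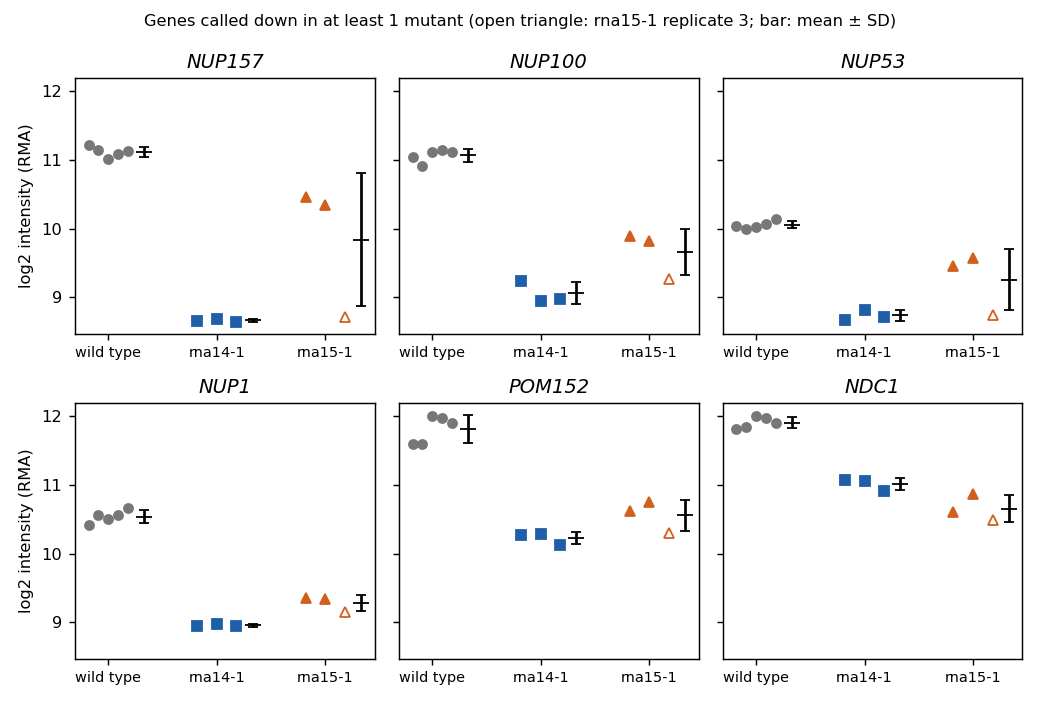
Log2 intensity (vertical axis) on every array by strain for the 6 genes called down in at least 1 mutant, with the mean and SD of each strain as a bar to the right of its points and *rna15-1* replicate 3 as an open triangle. Wild-type arrays lie above all mutant arrays in all 6 panels, and the open triangle is the lowest *rna15-1* point in each, farthest from its replicates for *NUP157*.

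The export receptor itself moved little. *MEX67* on chromosome XVI, the large subunit, read 11.45, 11.49, 11.48, 11.53 and 11.49 in the wild type, 10.98, 11.04 and 11.09 in *rna14-1* and 11.07, 11.22 and 10.87 in *rna15-1*. Neither mutant overlapped the wild type, and the falls of 0.45 ± 0.08 and 0.44 ± 0.08 (adjusted p = 3.0e-04 and 5.0e-04) were under 2-fold. *MTR2*, the small subunit, read 12.14 to 12.37 in the wild type, 12.24, 12.11 and 12.11 in *rna14-1* and 11.95, 11.87 and 12.35 in *rna15-1*, with changes of -0.07 and -0.17 that did not pass the test (adjusted p = 0.556 and 0.184). *NAB2*, which encodes a poly(A)-binding protein that recruits Mex67, had -0.17 and -0.18 and did not pass either (adjusted p = 0.113 and 0.107).

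Related nucleoporin genes changed unequally. Within each array the difference between the 2 genes of a pair was taken, and its change from wild type to mutant was compared with an exact two-sided permutation test, for which 3 against 5 arrays allow no p below 0.0357. The change of *NUP157* minus that of *NUP170* was -1.98 in *rna14-1* and -0.89 in *rna15-1*. For *NUP100* minus *NUP116* it was -1.95 and -0.87, and for *MLP2* minus *MLP1* it was -1.07 and -0.23. The first gene of each pair was thus the lower one relative to its partner, although *MLP2* did not pass the test by itself in *rna15-1*, nor *NUP116* in *rna14-1*, nor *MLP1* in either mutant. In these 6 comparisons the mutant and wild-type arrays did not overlap and the p was 0.0357, the smallest possible, and also 0.0357 after adjustment over the 6. Such separation was common among single genes. Every *rna14-1* array lay below or above every wild-type array for 36.1% and 37.7% of all tested genes. In *rna15-1* these shares were 29.1% and 32.6%. The share over other gene pairs is not given here. *NUP53* minus *ASM4*, the gene of Nup59, gave -1.36 and -0.60, which is a description with no test, since that pair was chosen after its values were seen. The tested pairs, like the other rules, were set with earlier results of these data known. Their p-values are therefore descriptive. For *NUP157* against *NUP170* in *rna15-1* the difference ranged from -1.26 to -0.27 when single arrays were left out, the smallest without replicate 3, and for *NUP53* against *ASM4* from -0.77 to -0.30. Probe sets can differ in how fully they report a change, and this was not tested.

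The mutants differed from each other in some of these genes. In *rna15-1* against *rna14-1*, 6 of the 34 genes were higher at the threshold and 2 lower, which is 17.6% and 5.88%, where 16.0% of all tested genes were higher and 16.5% lower. The median difference was 0.03 against 0.01 over all genes, and limma called 0 up and 0 down at over 2-fold, against 2.02% and 2.88% of all genes (12 higher and 5 lower at an unadjusted p under 0.05). The higher genes were *MLP2* (0.84 ± 0.12, adjusted p = 3.0e-04), *NUP188* (0.63 ± 0.12, 0.0015), *NUP100* (0.60 ± 0.15, 0.00752), *NUP49* (0.54 ± 0.09, 9.9e-04), *NUP60* (0.36 ± 0.08, 0.0037) and *NUP1* (0.32 ± 0.08, 0.00766). The lower genes were *NUP116* (-0.48 ± 0.09, adjusted p = 0.00164) and *NSP1* (-0.47 ± 0.11, 0.00479). For *MLP2* and *NUP49* every *rna14-1* array lay below every wild-type array and the *rna15-1* arrays overlapped the wild type, while for *NUP116* it was the other way round. *NUP157* had the largest difference, 1.18 ± 0.35, which did not pass the test with all arrays (adjusted p = 0.0171). With the chromosome medians centred its difference was 0.69 ± 0.2, which did not pass either (adjusted p = 0.0171).

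Replicate 3 of *rna15-1* bore on this comparison more than on the others. Its value was nearer the *rna14-1* mean than the mean of *rna15-1* replicates 1 and 2 for 22 of the 34 genes (64.7%, against 48.3% of all genes), and it was below those replicates for 24, with a median of -0.14 against -0.02 over all genes. The gap ran from -1.67 for *NUP157* to 0.44 for *MTR2*. Without replicate 3, 10 genes were higher and 2 lower in *rna15-1* than in *rna14-1*, against 24.3% and 22.3% of all genes, and *NUP157* was called up with a difference of 1.73 ± 0.07 (adjusted p = 1.3e-07). *NUP53* then differed by 0.77 (adjusted p = 1.3e-05). *NUP157* lies on chromosome V, whose median gene lay 0.72 and 0.67 above the wild-type mean in *rna15-1* replicates 1 and 2. The part of that shift in the *NUP157* difference without replicate 3 was not tested. The count of higher genes was 3 without *rna14-1* replicate 2 or 3 or without *rna15-1* replicate 2, and the count of lower genes was 1 without *rna14-1* replicate 1 or 3. Shares over all genes are not given for these last fits.

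The genes of the pore are longer than most, and over all tested genes the long ones fell more often than the short ones in both mutants. The 34 genes have a median length of 2208 bp (555 to 5628 bp) against 1236 bp for all tested genes. Among the 20 that exceed 2000 bp, 10 fell in *rna14-1*, which is 50.0% and near the 45.0% of all 1228 genes of that length, with medians of -0.38 and -0.27. In *rna15-1* 13 of the 20 fell, which is 65.0% against 48.4%, with medians of -0.42 and -0.35. Among the 14 shorter genes, 7 fell in *rna14-1* (50.0%, against 25.0% of 4221 genes, medians -0.28 and 0.08) and 3 in *rna15-1* (21.4%, against 17.9%, medians -0.05 and 0.14). Within the class over 2000 bp, *NUP157* at 4176 bp fell by 2.46 in *rna14-1* and *NUP188* at 4968 bp had -0.26. The part of gene length in the changes of the set was not tested.

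**Figure D5:**
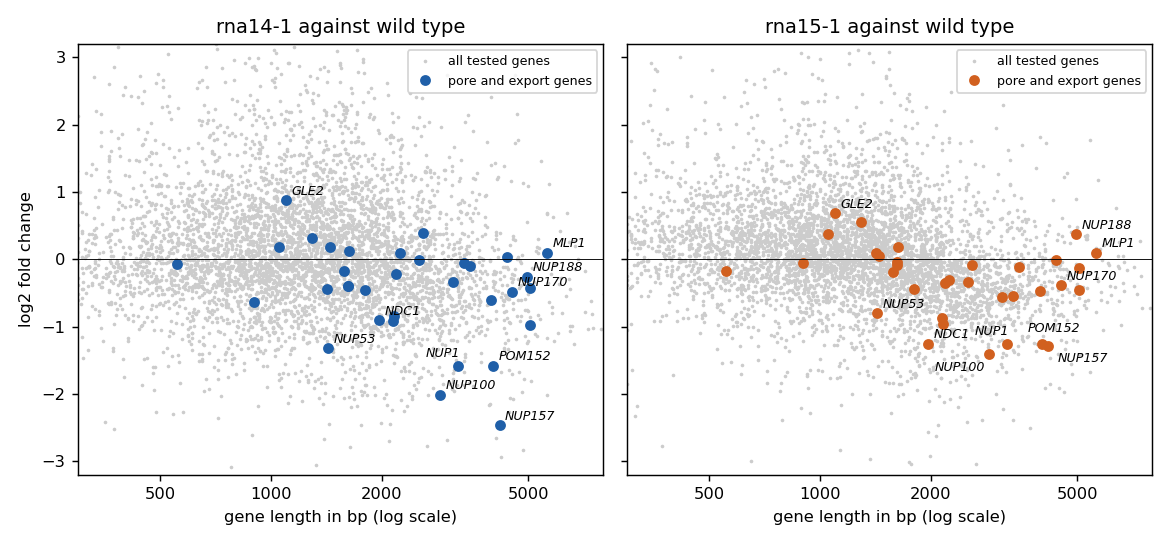
Log2 fold change against the wild type (vertical axis) by gene length in bp (horizontal axis, log scale) for *rna14-1* at left and *rna15-1* at right, with all tested genes in grey and the 34 pore and export genes in colour. Most coloured points lie in the right part of each panel, where grey points also shift below 0, and *NUP53* and *NDC1* are the lowest of the shorter genes. Another 291 and 280 genes lie outside the axes.

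Genes of the neighbouring steps of nuclear transport were counted in the same fit, in which 29.5% of all tested genes fell and 32.8% rose in *rna14-1*, and 24.7% fell and 28.2% rose in *rna15-1*. Of 15 karyopherin genes, which encode the import and export receptors that bind FG repeats, 10 fell and 1 rose in *rna14-1*, with a median of -0.33, and 7 fell and limma gave 0 that rose in *rna15-1* (0 higher at an unadjusted p under 0.05 too), with a median of -0.42. *KAP95*, the gene of importin beta, read 11.07 to 11.24 in the wild type, 9.51 to 9.57 in *rna14-1* and 9.16 to 9.61 in *rna15-1*, and fell with changes of -1.61 ± 0.10 and -1.71 ± 0.10 (adjusted p = 2.2e-07 and 2.0e-07). *NMD5*, an importin gene, fell with changes of -1.65 ± 0.07 and -1.40 ± 0.07 (adjusted p = 5.3e-08 and 1.2e-07). *KAP123*, the gene of an importin for ribosomal proteins and like *NUP157* on chromosome V, read 10.46, 10.51 and 10.31 in *rna14-1*, 12.11, 12.13 and 10.75 in *rna15-1* and 12.08 to 12.56 in the wild type. It fell in *rna14-1*, with a change of -1.87 ± 0.27 (adjusted p = 9.7e-05) and had -0.63 ± 0.27 in *rna15-1* (adjusted p = 0.0606), with replicate 3 again near *rna14-1*.

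Of 8 genes of the Ran cycle, which gives transport its direction, 2 rose and 2 fell in *rna14-1*, while in *rna15-1* there was 1 of each. *GSP2*, the lesser expressed of the yeast Ran genes, read 9.85 to 10.20 in the wild type, 13.26, 13.48 and 13.50 in *rna14-1* and 12.37, 12.24 and 13.41 in *rna15-1*, and rose by 3.34 ± 0.22 and 2.60 ± 0.22 (adjusted p = 4.0e-07 and 2.8e-06). *GSP1*, the other Ran gene, had -0.10 and 0.04 and did not pass the test. *SRM1*, also known as *PRP20*, which encodes the Ran exchange factor, fell in *rna14-1* by 0.65 (adjusted p = 6.1e-05) and had 0.04 in *rna15-1*. *MOG1*, the gene of a Ran-binding protein, fell by 0.49 and 0.32.

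Of 11 further genes of the pore and its assembly, 2 rose and 1 fell in *rna14-1*, whereas *rna15-1* had 1 higher and 2 lower, with medians of 0.04 and 0.07. *SRC1*, also known as *HEH1*, which encodes an inner nuclear membrane protein, fell in *rna15-1* by 0.75 (adjusted p = 1.3e-04) and had -0.26 in *rna14-1* (adjusted p = 0.0481). *NUR1* rose in *rna14-1* by 0.72 (adjusted p = 7.1e-04), and *APQ12*, a nuclear envelope gene linked to mRNA export, rose by 0.49 and 0.36 (adjusted p = 0.0011 and 0.00786). Of 11 genes listed as mRNA export adaptors or related factors, not all of which couple transcripts to Mex67, 5 fell and 3 rose in *rna14-1*. In *rna15-1* 2 of them fell and 1 rose. The adaptor gene *NPL3* fell by 1.07 ± 0.08 and 0.82 ± 0.08 (adjusted p = 8.7e-07 and 7.8e-06), *MIP6*, whose product binds Mex67, rose by 1.00 and 0.86 (adjusted p = 0.00165 and 0.00497), and *GFD1*, whose product binds Gle1 and Dbp5, rose in *rna14-1* by 0.98 ± 0.11 (adjusted p = 1.0e-05) and had 0.01 in *rna15-1*.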

How the data were processed

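Total RNA of 5 wild-type, 3 *rna14-1* and 3 *rna15-1* samples was hybridised to Affymetrix yeast arrays. By the submitters' notes, the authors used GCOS, the robust multiarray average (RMA) method and limma, with no versions stated. The deposited values are normalised log2 intensities and were used as they are. Coordinates are left out because no build is named with the values, and no sequences were used here. The number of arrays limits the precision.

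The platform annotation gives 1 gene name to 7244 of 10928 probe sets, several to 1 and none to 3683. The 5498 of *S. cerevisiae* by the R64 gene table measure 5449 genes, the brightest probe set standing for each of 47 genes with several. The 95th percentile of 1746 other named probe sets was the background of an array, and 98.7% to 99.7% of the genes lay above it. The R64 table also gave chromosomes, neighbours and gene lengths, of which 97.0% can be divided by 3.

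All genes were fitted over the 11 arrays with lmFit and eBayes (R 4.3.3, limma 3.58.1), 1 coefficient per strain, with the thresholds of the methods. Nothing beyond the labels says that arrays came from separate cultures, so p-values measure the spread between arrays. Gene pairs were compared with exact permutation tests (scipy 1.17.1), and Python 3.11.15 with matplotlib 3.10.9 made the plots. The fit was checked on simulated data.

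The 34 genes, the lists and the rules were chosen with earlier results of these data known. Values on every array are given for genes called in any comparison and for those with the largest rise and fall of each role group, and from the other lists up to 3 genes with the largest change are named, with *GSP1* and *ASM4* added beside their relatives. Alternatives changed the wild-type arrays, normalisation, chromosome medians, probe sets, filters, strains in the fit, variance model, thresholds and a replicate block, and left out each array in turn.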

Additional observations from a re-analysis of the deposited data

Results flagged for a closer look

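For 12 of the genes named here the change from the wild type differed between the mutants by limma's test of the difference itself (adjusted p under 0.01, *rna15-1* minus *rna14-1*, log2). Among the pore genes *MLP2* differed by 0.84, *NUP188* by 0.63, *NUP100* by 0.60, *NUP49* by 0.54, *NUP60* by 0.36 and *NUP1* by 0.32, and *NUP116* by -0.48 and *NSP1* by -0.47. These are 8 of the 34. Among the other transport genes named, *KAP123* differed by 1.23, *SRM1* by 0.69, *SRC1* by -0.49 and *GFD1* by -0.97. Over the whole lists, the difference passed for 5 of 15 karyopherin genes, 2 of 8 Ran cycle genes and 3 of 11 further pore genes. It passed for 3 of 11 export adaptor and related genes, where 16.0% of all tested genes were higher and 16.5% lower. No gene of the set had a wild-type array far from the other 4 by Dixon's criterion, and the mutants with 3 arrays were too small for it. The outcome depends on the level of the criterion, which is not given here. *NUP170*, for example, read 11.51 on wild-type replicate 5 and 11.31 to 11.37 on the other wild-type arrays.

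*KAP123*, like *NUP157*, lies on chromosome V, and on both *rna15-1* replicate 3 read near the *rna14-1* arrays while replicates 1 and 2 did not. The part of that array and of the chromosome V shift in the difference of *KAP123* was not tested.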

How the results depend on the processing

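Of 60 results for 20 named genes under 24 alternatives each, 1330 of 1440 kept direction and side of the threshold, 89 lost the call, 21 gained it and 0 reversed. Among the 34 genes in *rna14-1*, the number that rose was 0 with wild-type replicates 1 and 2 only (limma, 3 higher at an unadjusted p under 0.05), 1 with quantile normalisation and 1 with the replicate block, and 3 were called down with wild-type replicates 3 to 5 only. In *rna15-1* the number that rose was 1 with wild-type replicates 1 to 3 or 1 and 2 only, 2 with replicates 3 to 5 only, 2 with chromosome centring and 2 with the replicate block, 8 fell with wild-type replicates 1 and 2 only, and 2 were called down with the replicate block. In *rna15-1* against *rna14-1* the number lower was 1 with wild-type replicates 1 to 3 or 1 and 2 only and with only the 2 strains compared, 0 with the replicate block (5 at an unadjusted p under 0.05) and 5 at an adjusted p under 0.05, and the number higher was 3, 2 and 11 with only the 2 strains, the block and that threshold. Leaving out single arrays gave 2 to 3 that rose, 16 to 18 that fell and 4 to 6 called down in *rna14-1*, 1 to 4 that rose, 15 to 16 that fell and 4 to 5 called down in *rna15-1*, and 3 to 10 higher, 1 to 3 lower and 0 to 1 called up between the mutants. Shares over all tested genes are given only for the fit without *rna15-1* replicate 3. The other counts show how calls depend on the setting and are no result about the pore genes. The replicate numbers share no known culture or day. Same-numbered arrays deviated together with r between -0.138 and 0.344 over 9 pairs, and an array correlated best with its own number in 6 of 18 cases, so the replicate block, with 14 that fell in *rna14-1* and 11 in *rna15-1*, is no paired test.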

Other observations

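Transcripts that end towards a converging neighbour and those followed by a gene on the same strand were described apart, since the mutants are impaired in 3′ end formation. Of the 34 genes, 21 converge with the next gene downstream and 13 are followed by a gene in tandem. In *rna14-1* 9 of the 21 convergent genes fell and 3 rose (median -0.21), where 28.3% and 33.8% of all 2858 convergent genes did, and 8 of the 13 tandem genes fell (median -0.44), where 30.8% of all 2587 tandem genes did. In *rna15-1* the counts were 10 and 2 (median -0.30) for convergent genes, against 22.4% and 30.6% of all such genes, and 6 and 2 (median -0.17) for tandem genes, against 27.3% and 25.7%. No difference between the orientations was tested.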
